A study of Mus musculus with 2 samples.

Results

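The genes that flank H2afz on mouse chromosome 3 were compared between an H2A.Z conditional knockout (H2AZcKO) and its floxed control (H2AZfl/fl) by RNA sequencing of embryonic forebrain. The members are the rows of the deposited table that lie wholly between positions 127900000 and 147900000 of chromosome 3 in GRCm38, about 10 Mb on each side of H2afz. Of 126 rows in that window, 7 are set aside: H2afz itself, Unc5c, Lef1, Bmpr1b and 3 solute carrier genes. This leaves 119 members of 19720 listed genes, of which 118 are described. Each genotype is represented by 1 count column, on a C57BL/6 background, from tissue labelled as telencephalic and dissected as cerebral cortex. Both genotypes carry floxed H2A.Z alleles; the title of the control calls it WT. The titles say embryonic day 16, but embryonic day 12 stands in a characteristics field, and the age is not settled here. Triplicates are mentioned in the design text. The sources used here state neither a pooling of animals nor the Cre line.

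H2A.Z is a histone variant that is placed in nucleosomes around transcription start sites by dedicated remodelling complexes. Neighbours of a targeted gene are often examined in mouse genetics, since a modified allele is inherited together with the chromosome around it. The segment around H2afz has no shared function. It holds the alcohol dehydrogenase cluster, signalling enzymes of neurons, translation factors and regulators of chromatin.

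The libraries held 9028523 reads in genes for the knockout and 8474545 for the control, and there was no replicate of either. No test between genotypes was possible, and no p-value is given. Ratios are log2 values of knockout over control after scaling by the trimmed mean of M values (TMM). The range in parentheses after a ratio is its exact 95% Clopper-Pearson interval, which covers counting error only. Genes with 20 or more reads, both libraries added, are called measured, and those at least 1.5-fold higher or lower are called apart. H2afz, the targeted gene, had 535 reads in the knockout and 1152 in the control, a log2 ratio of -1.16 (-1.31 to -1.01), 2.24-fold lower. Dorsal telencephalic markers were present in both libraries, with 0 of 12 apart and a summed level of 3953 CPM (reads scaled to library size) in the knockout and 4091 CPM in the control. Choroid plexus and meningeal fibroblast markers were lower in the knockout library, with 12 of 14 and 13 of 14 measured genes apart in that direction. Diencephalic and midbrain markers were higher, with 7 of 9 measured genes apart, as were 8 of 15 ventral telencephalic markers. Of all measured genes, 3.52% were at least 1.5-fold higher, 5.43% at least 1.5-fold lower and 8.95% either. Among the diencephalic and midbrain markers, En1, En2 and Barhl1 had too few reads to measure. Control reads were few for Irx1 (2), Irx2 (2), Irx3 (4), Gbx2 (9) and Shox2 (0). These genes counted as measured because of the knockout library. Otp and Tcf7l2, also higher, had 41 and 111 control reads. Most of the lower choroid plexus and meningeal markers likewise counted as measured because of the control library.

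Promoter sequence is shown for the neighbour next to H2afz and for 4 members that stood furthest from level among those with at least 10 reads in each library and an interval that excluded a ratio of 1. Each is the 250 bases before a RefSeq transcription start in GRCm38.p6, printed 5′ to 3′ with CpG dinucleotides in capitals.
Dnajb14, chr3:137867425-137867674, plus strand: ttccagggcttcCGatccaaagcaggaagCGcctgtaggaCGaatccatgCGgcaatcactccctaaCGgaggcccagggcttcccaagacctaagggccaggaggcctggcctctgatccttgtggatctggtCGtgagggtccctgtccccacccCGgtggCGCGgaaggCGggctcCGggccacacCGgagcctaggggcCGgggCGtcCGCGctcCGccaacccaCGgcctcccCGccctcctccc
Emcn, chr3:137340828-137341077, plus strand: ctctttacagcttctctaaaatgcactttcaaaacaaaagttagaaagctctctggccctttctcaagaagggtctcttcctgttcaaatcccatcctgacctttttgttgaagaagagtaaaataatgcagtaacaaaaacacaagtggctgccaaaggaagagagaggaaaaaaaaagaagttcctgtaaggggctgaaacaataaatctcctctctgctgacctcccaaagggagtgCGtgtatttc
Cxxc4, chr3:134236245-134236494, plus strand: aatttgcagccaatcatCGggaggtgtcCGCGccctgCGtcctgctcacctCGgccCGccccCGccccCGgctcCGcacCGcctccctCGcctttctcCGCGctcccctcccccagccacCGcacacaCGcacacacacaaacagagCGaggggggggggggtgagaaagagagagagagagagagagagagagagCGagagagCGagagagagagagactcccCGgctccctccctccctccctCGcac
Npnt, chr3:132950292-132950541, minus strand: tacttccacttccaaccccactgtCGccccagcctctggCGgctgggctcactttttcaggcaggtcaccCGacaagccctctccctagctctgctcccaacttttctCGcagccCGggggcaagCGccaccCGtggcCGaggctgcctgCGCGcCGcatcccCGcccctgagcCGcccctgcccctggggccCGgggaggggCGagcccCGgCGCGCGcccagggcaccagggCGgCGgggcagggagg
Col25a1, chr3:130180595-130180844, plus strand: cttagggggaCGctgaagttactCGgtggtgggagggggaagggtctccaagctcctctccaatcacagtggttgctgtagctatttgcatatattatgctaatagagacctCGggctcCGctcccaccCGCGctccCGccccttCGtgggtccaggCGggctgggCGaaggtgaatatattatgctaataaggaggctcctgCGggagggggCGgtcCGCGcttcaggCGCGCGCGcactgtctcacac
The Dnajb14 window starts after 502 bases that separate it from the end of H2afz. The Col25a1 start lies 49.3 kb inside the listed span of that gene. Dnajb14 has 19 CpG dinucleotides, Cxxc4 has 20, Npnt has 21 and Col25a1 has 18, and each exceeds at least 78.3% of the 32851 promoters in the RefSeq table, whose median is 6. Emcn has 1, above 7.87% of promoters. On either strand, TATAAA is in none of the 5 windows and in 12.4% of all promoters. CCAAT is in Cxxc4 and Col25a1 and in 33.8% of all promoters. GGGCGG, which contains a CpG, is in the windows other than that of Emcn and in 32.7% of all promoters. RefSeq promoter entries matched 84 of the 118 members.

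The region as a whole was level between the libraries. Of the 118 members, 71 were measured, and 63 of these were less than 1.5-fold apart. In the knockout, 3 were at least 1.5-fold higher (4.23%, against 3.52% of all 14366 measured genes), and 5 were at least 1.5-fold lower (7.04%, against 5.43%). In either direction this was 8 members, or 11.3%, against 8.95% of all measured genes, a share near the background for so few genes. The interval excluded a ratio of 1 for 16 members, or 22.5%, against 21.8% of all measured genes. For 4 of the 8 members apart the interval also excluded a ratio of 1, as it did for 749 of the 1286 genes apart among all measured genes. Both limits were thus met by 4 of the 71 measured members, against 5.21% of all measured genes. The median log2 ratio was 0.03, with an interquartile range of -0.19 to 0.11, against a median of 0.00 and a range of -0.14 to 0.12 over all measured genes. Together the 118 members had 35508 reads in the knockout library and 32989 in the control library, 0.393% and 0.389% of the reads in genes, a summed log2 ratio of 0.05 (0.03 to 0.07). The same sum over all listed genes was 0.03 (0.03 to 0.04) at this scaling. In the authors' deposited table, 2 members (Col25a1 and Wdr63) are marked as significant, or 1.69%, against 1.61% of all listed genes; the sources used here do not name the test behind that mark.

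**Figure D1:**
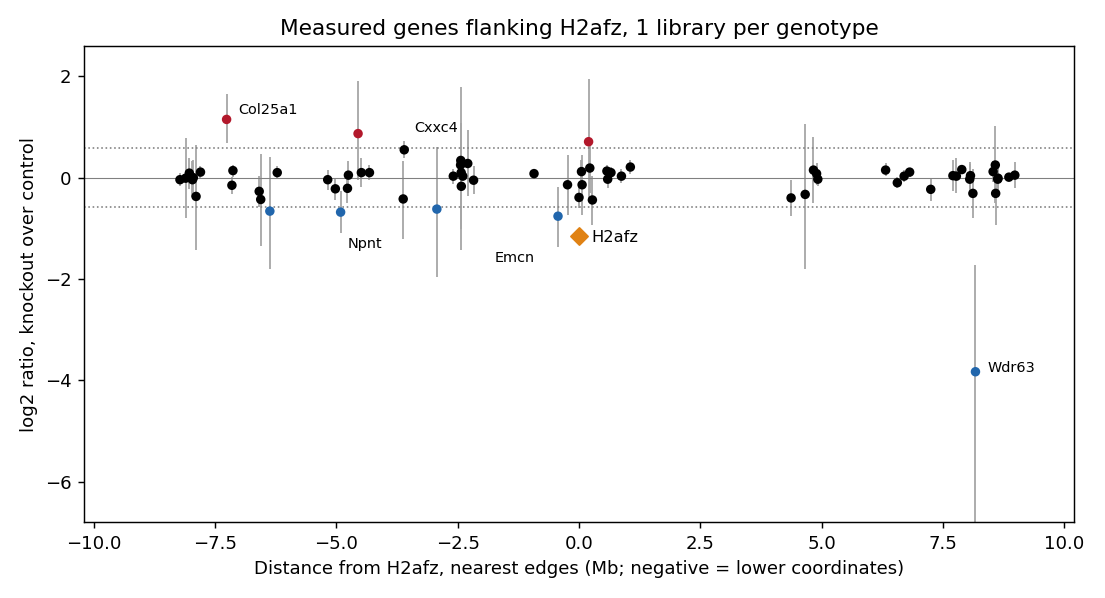
Log2 ratio of knockout over control (vertical axis) for the 71 measured flanking genes by distance in Mb from H2afz (horizontal axis, negative for lower coordinates). Points are genes (red, at least 1.5-fold higher in the knockout; blue, at least 1.5-fold lower; dotted lines mark the limit), grey bars are exact 95% intervals for counting error, the orange diamond is H2afz at -1.16, and the lower end of the Wdr63 bar runs off the plot; most genes lie near 0 at every distance.

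Medians lay close to 0 in each of 4 classes of distance from H2afz, with 0.15 the furthest. Within 1 Mb, 2 of 13 measured members were apart (15.4%), from 1 to 2.5 Mb 0 of 8, from 2.5 to 5 Mb 3 of 15 (20%), and beyond 5 Mb 3 of 35 (8.57%). The share over all measured genes was 8.95%. Among the members apart, the interval excluded a ratio of 1 for 1, 0, 1 and 2 in the same order. The medians of these classes were 0.03, 0.15, 0.03 and -0.01. Summed reads gave log2 ratios of 0.04 (-0.01 to 0.08), 0.10 (0.03 to 0.16), 0.07 (0.01 to 0.13) and 0.04 (0.01 to 0.07) in the same order. Across the 71 measured members, Spearman's correlation between distance and log2 ratio was -0.08, and between distance and the size of the ratio in either direction -0.26; neighbouring genes share the 2 libraries and are not independent. The size of the ratio went with read number more closely (-0.52 over members, -0.50 over all measured genes). On the side of lower coordinates 6 of 36 measured members were apart (16.7%), and on the side of higher coordinates 2 of 35 (5.71%), against 8.95% of all measured genes. The interval excluded a ratio of 1 for 3 of the 6 and 1 of the 2. The difference between the sides was not tested. The longest stretch without a listed member ran from 1.21 to 4.37 Mb on the higher side, where Unc5c and Bmpr1b, both set aside, lie.

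**Figure D2:**
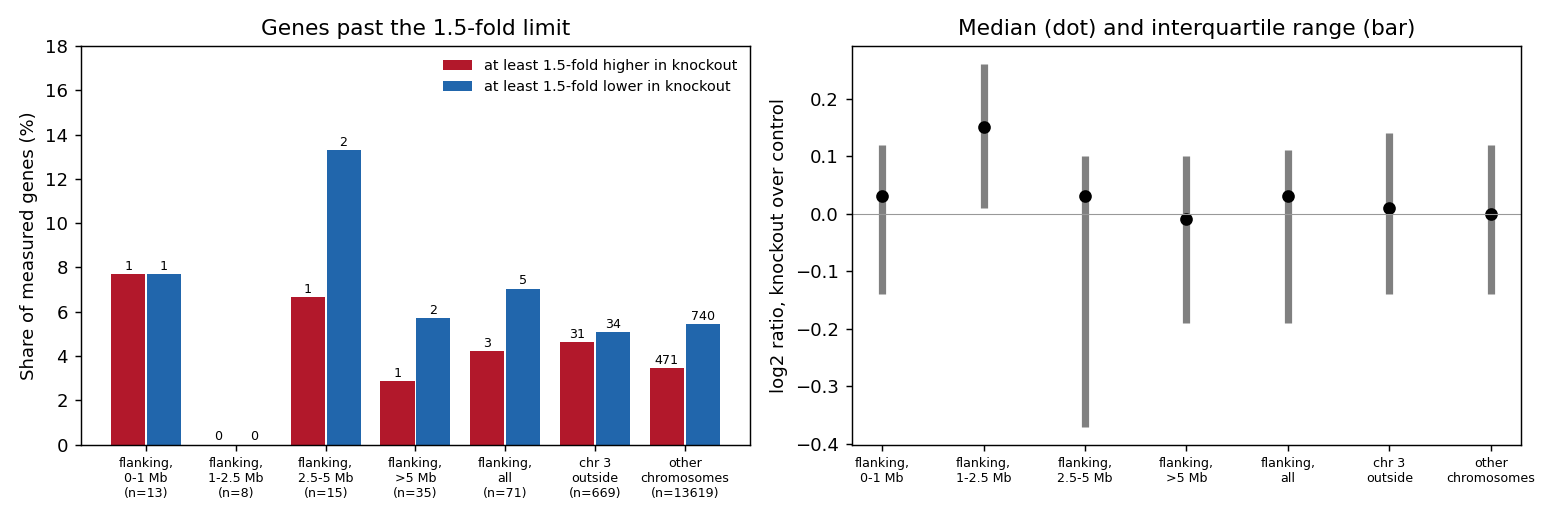
Left, share of measured genes at least 1.5-fold higher (red) or lower (blue) in the knockout, with gene numbers above the bars, for the flanking genes by distance, all flanking genes, chromosome 3 outside the window and the other chromosomes. Right, median log2 ratio of knockout over control (dot) and interquartile range (bar) for the same sets; all 7 medians lie between -0.01 and 0.15.

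Chromosome 3 outside the window was also level for most genes. There 65 of 669 measured genes (9.72%) were apart, 31 higher and 34 lower, with a median of 0.01. On all other chromosomes 8.89% of 13619 measured genes were apart, with a median of 0.00. By chromosome, the share apart lay between 5.03% on chromosome 8 and 11.5% on chromosome 6, and the median between -0.02 on chromosome 17 and 0.03 on chromosome X. The 11.3% of the flanking genes rests on 8 genes and lies within that span. Within classes of read number the shares were as follows. Of members with 20 to 99 reads 5 of 18 (27.8%) were apart, against 31.1% of all genes in that class. With 100 to 999 reads it was 3 of 31 (9.68%) against 5.02%, and with 1000 or more reads 0 of 22 against 0.502%.

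The gene next to H2afz was the nearest measured member and was slightly lower in the knockout library. Dnajb14, which encodes a membrane-bound J-domain co-chaperone of the endoplasmic reticulum, lies in the same orientation and begins 753 bases past the end of H2afz, at 137867675 to 137916557. It had 362 reads in the knockout and 455 in the control, a log2 ratio of -0.39 (-0.59 to -0.18), 1.31-fold lower (1.14 to 1.5). That is under the 1.5-fold limit, and its interval excluded a ratio of 1. Of all 6814 genes with 100 to 999 reads, 7.29% had as low a ratio or lower, and of the 31 members in that class 5 did, Dnajb14 included. Its CpG-rich promoter window, printed above, lies wholly in the space between both genes. On the other side of H2afz the nearest row is Gm43403, an antisense model 113 bases away with 1 read in the knockout and 4 in the control, too few to measure.

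The remaining genes within 1 Mb were mostly level. Lamtor3, a subunit of the lysosomal Ragulator complex 51.6 kb from H2afz, had 311 reads in the knockout and 276 in the control, a log2 ratio of 0.12 (-0.12 to 0.35). Dapp1, an adaptor of phosphoinositide signalling in immune cells, had 48 knockout and 51 control reads, -0.14 (-0.74 to 0.45). Ddit4l, an inhibitor of mTOR signalling, had 50 reads in the knockout and 53 in the control, -0.14 (-0.73 to 0.44). Lamtor3 thus sat slightly above level and Dapp1 and Ddit4l slightly below, each within counting error. Ppp3ca, the catalytic subunit of the phosphatase calcineurin, had 2163 knockout and 1974 control reads, a ratio of 0.08 (-0.01 to 0.16). Tspan5, a tetraspanin that guides the protease ADAM10, had 813 knockout and 763 control reads, 0.03 (-0.11 to 0.18). Mttp, the microsomal triglyceride transfer protein gene, and Trmt10a, a tRNA methyltransferase gene, overlap on opposite strands, and the strand setting of the counts is not given, so their reads cannot be separated with certainty. Mttp had 76 reads in the knockout and 64 in the control, 0.19 (-0.31 to 0.69), and Trmt10a had 65 reads in the knockout and 85 in the control, -0.44 (-0.93 to 0.04).

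The 2 members within 1 Mb that were past the limit had few reads. Emcn, which encodes the endothelial sialomucin endomucin, lies 432 kb from H2afz. Emcn had 41 reads in the knockout and 67 in the control, a log2 ratio of -0.76 (-1.36 to -0.18), 1.69-fold lower (1.14 to 2.57). Of 11 other endothelial markers, 0 were apart, against 8.95% of all measured genes, and their median was -0.28. They ran from Tek at -0.50 (-0.94 to -0.07) to Pecam1 at 0.04 (-0.24 to 0.32). Their summed level was 241.6 CPM in the knockout and 273.6 CPM in the control, a log2 ratio of -0.18 (-0.26 to -0.09). None was at 0 reads. The part of endothelial content in the Emcn value was not tested. In bulk tissue, fewer cells of a type and less RNA per cell cannot be told apart. The RIKEN gene model 1110002E22Rik had 19 reads in the knockout and 11 in the control, 0.71 (-0.41 to 1.95), an interval that includes a ratio of 1.

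**Figure D3:**
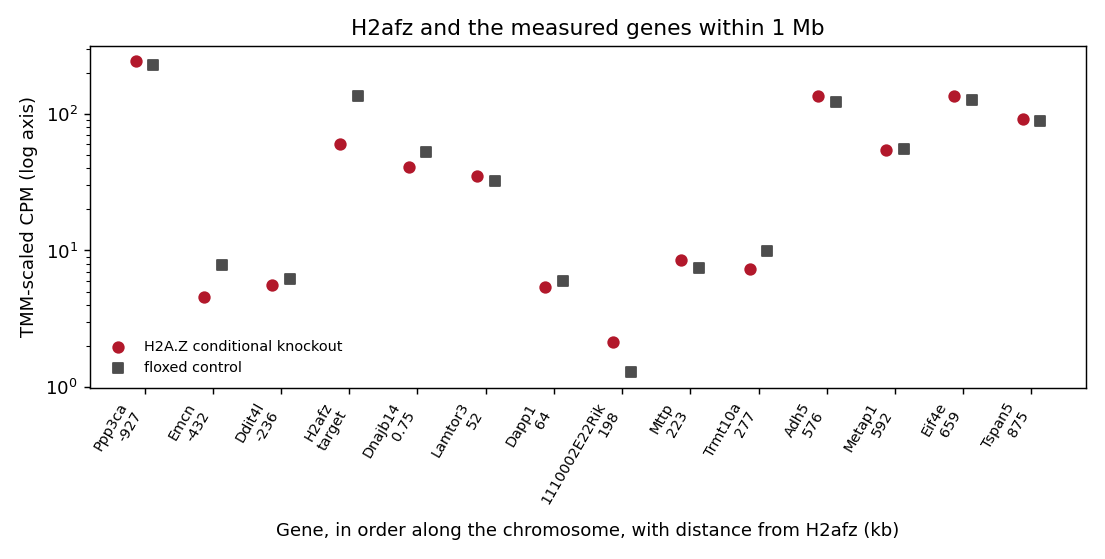
TMM-scaled CPM (log axis) of H2afz and the 13 measured genes within 1 Mb, in order along the chromosome with their distance in kb, in the knockout library (red circles) and the control library (grey squares). H2afz shows the widest separation, at 535 reads in the knockout and 1152 in the control, and Emcn the next.

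Translation genes of the segment lay under the 1.5-fold limit, including the cap-binding factor gene close to H2afz. Of 8 measured members on this list, 0 were apart, against 8.95% of all measured genes, with a median of 0.01. For so few genes a count of 0 is near that share. Trmt10a, described above, had the lowest ratio on the list, at -0.44 (-0.93 to 0.04). Eif4e, which encodes the protein that binds the mRNA cap, had 1218 reads in the knockout and 1092 in the control, 0.10 (-0.02 to 0.22). Metap1, a methionine aminopeptidase gene, had 488 knockout and 479 control reads, -0.03 (-0.21 to 0.16). Rpl34, a protein of the large ribosomal subunit, had 1364 knockout and 1194 control reads, 0.14 (0.02 to 0.25). Eif4e and Metap1 were within counting error of level; Rpl34 was above it by a small margin. Gar1, a component of the box H/ACA ribonucleoprotein that guides RNA pseudouridylation, was at 0.09 (-0.22 to 0.39), and Aimp1, a scaffold of the tRNA synthetase complex, at -0.04 (-0.24 to 0.15).

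Of the alcohol dehydrogenase cluster, Adh5 alone was measured among the 4 rows listed. Adh5, the ubiquitous class of the family that oxidises glutathione-bound formaldehyde, had 1198 reads in the knockout and 1052 in the control, a log2 ratio of 0.13 (0.01 to 0.25). Adh7 had 5 reads in the knockout and 0 in the control, Adh1 had 1 knockout and 2 control reads, and Adh6b had 1 read in each library. Reads of such similar paralogs can be hard to assign to the right gene, so these low values are uncertain. The wider list of metabolic enzymes had 13 measured members, with a median of 0.10. Of these 0 were higher, against 3.52% of all measured genes, and 1 was lower (7.69%, against 5.43%). For so few genes these counts are near the background. The lower one was Sgms2, a sphingomyelin synthase gene, with 13 knockout and 20 control reads, -0.66 (-1.81 to 0.40). Ddah1, which degrades asymmetric dimethylarginine, had 2113 knockout and 1823 control reads, 0.16 (0.07 to 0.25), and Cisd2, an iron-sulphur protein gene of endoplasmic reticulum and mitochondria, 578 knockout and 468 control reads, 0.25 (0.07 to 0.43). Elovl6, a fatty acid elongase gene, was at -0.04 (-0.16 to 0.09), Papss1, which makes the sulphate donor, at 0.10 (-0.02 to 0.23), and Hadh, of mitochondrial beta-oxidation, at -0.27 (-0.58 to 0.03).

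Among regulators of transcription and chromatin, 0 of 8 measured members were apart, against 8.95% of all measured genes, with a median of 0.08. For so few genes this count is near that share. Among the 22 members with 1000 or more reads, Cxxc4 stood furthest from level. It encodes the CXXC zinc finger protein IDAX, which binds unmethylated CpG DNA and restrains TET2 and Wnt signalling. It had 739 reads in the knockout and 484 in the control, a log2 ratio of 0.55 (0.39 to 0.72), 1.47-fold higher (1.31 to 1.65) and so just under the limit. Of all 4586 genes with 1000 or more reads, 19 had as high a ratio or higher, Cxxc4 included. Cxxc4 was singled out by this same ratio, so its rank is a description and not a test. Cxxc4 overlaps the antisense model Gm26691, which had 27 knockout and 35 control reads, -0.42 (-1.21 to 0.33). Tet2, a dioxygenase gene that oxidises methylated cytosine and lies on the same side of H2afz, had 748 knockout and 669 control reads, 0.10 (-0.05 to 0.26). Lmo4, a LIM-only transcriptional cofactor gene of cortical neurons, had 1161 knockout and 1003 control reads, 0.15 (0.03 to 0.28). Cenpe, the kinetochore motor gene, was at 0.03 (-0.12 to 0.18), and Nfkb1, which encodes the p50 subunit of NF-kappa-B, at -0.05 (-0.33 to 0.23).

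Of 6 measured matrix, adhesion and secreted-factor genes, 1 was at least 1.5-fold higher in the knockout (16.7%, against 3.52% of all measured genes) and 2 were lower (33.3%, against 5.43%), with a median of -0.25. These shares rest on 3 genes, and no difference from other genes was tested. Col25a1, which encodes a transmembrane collagen of neurons, had 121 reads in the knockout and 52 in the control, a log2 ratio of 1.15 (0.68 to 1.66), 2.23-fold higher (1.60 to 3.16). Of all genes with 100 to 999 reads, 17 had as high a ratio or higher, Col25a1 included. Col25a1 too was singled out by its ratio, so this rank is not a test. Npnt, which encodes the basement membrane ligand nephronectin, had 81 knockout and 125 control reads, -0.68 (-1.10 to -0.27), 1.60-fold lower (1.20 to 2.15). These, with Emcn above, went in opposite directions. Pdlim5, a PDZ and LIM domain protein gene of the cytoskeleton, had 122 knockout and 155 control reads, -0.40 (-0.76 to -0.05). Hs2st1, a heparan sulphate sulphotransferase gene, was at -0.10 (-0.21 to 0.02), and Ccn1, a matricellular protein gene, at 0.03 (-0.31 to 0.38). Beside these values, the meningeal fibroblast markers summed to 30.16 CPM in the knockout and 301.7 CPM in the control, with none at 0 reads, and the ventral telencephalic markers to 1250 CPM in the knockout and 833.7 CPM in the control, also with none at 0. The diencephalic and midbrain markers summed to 204.8 CPM in the knockout and 72.75 CPM in the control, with Shox2 and En1 at 0 reads in the control. Shox2 had 85 reads in the knockout, and En1 had 5, too few to measure. Most of the knockout sum was Tcf7l2, at 114 CPM in the knockout and 12.94 CPM in the control. The part of these cell types in the values of Npnt and Col25a1 was not tested.

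**Figure D4:**
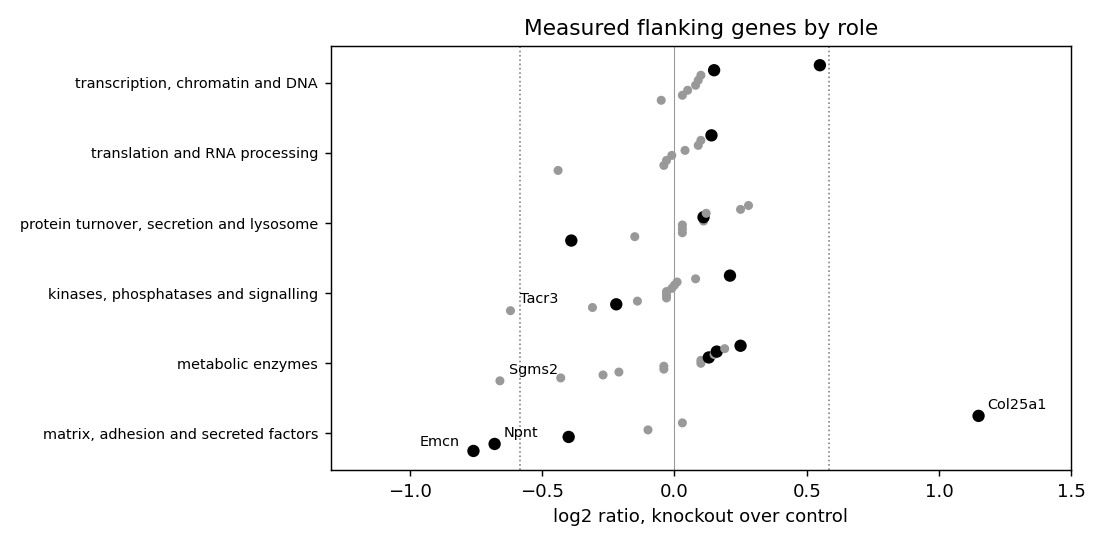
Log2 ratio of knockout over control (horizontal axis) for the measured flanking genes on each of 6 role lists (rows). Large black points have an interval that excludes a ratio of 1, grey points do not, dotted lines mark 1.5-fold, and the farthest point on the right is Col25a1 at 1.15; in 5 of the 6 rows at most 1 gene is past the limit.

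Signalling and protein-turnover genes, which include the most highly counted members, mostly lay under the 1.5-fold limit. Of 12 measured signalling genes 0 were higher, against 3.52% of all measured genes. In the other direction 1 was lower (8.33%, against 5.43%), and the median was -0.03. For so few genes these counts are near the background. The lower one was Tacr3, the neurokinin B receptor gene, with 10 knockout and 15 control reads, -0.62 (-1.96 to 0.61). Prkacb, a catalytic subunit of protein kinase A, had 2384 knockout and 2277 control reads, 0.01 (-0.07 to 0.09), and Rap1gds1, which binds small GTPases, 916 knockout and 761 control reads, 0.21 (0.07 to 0.35). Tbck, a TBC-domain kinase-like gene, was at -0.22 (-0.44 to -0.01) and Pkn2, a kinase gene related to protein kinase C, at -0.03 (-0.17 to 0.11). Of 10 measured turnover, secretion and lysosome genes 0 were apart, against 8.95% of all measured genes, with a median of 0.07. Dnajb14, described above, had the lowest ratio on this list, at -0.39 (-0.59 to -0.18). Ube2d3, a ubiquitin-conjugating enzyme gene and the member with most reads, had 2494 knockout and 2343 control reads, 0.03 (-0.05 to 0.12). Sh3glb1, the endophilin B gene of mitochondrial and autophagic membranes, had 2137 knockout and 1906 control reads, 0.11 (0.02 to 0.20). Manba, a lysosomal mannosidase gene, was at 0.28 (-0.36 to 0.95). Per length of exon, the highest of the 5 most counted members was Ddah1, at 59.5 RPKM (CPM per kilobase of exon) in the knockout and 53.4 in the control. Sh3glb1 followed at 32.1 RPKM in the knockout and 29.8 in the control, Prkacb at 30.5 RPKM in the knockout and 30.3 in the control, and Ppp3ca at 24.3 RPKM in the knockout and 23.1 in the control. Ube2d3 was lowest at 11.4 RPKM in the knockout and 11.2 in the control, although it had the most reads.

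The lowest ratio in the segment belonged to Wdr63, an axonemal dynein-associated gene of motile cilia 8.17 Mb from H2afz. It had 1 read in the knockout and 20 in the control, a log2 ratio of -3.83 (-9.75 to -1.73), 14.2-fold lower with an interval of 3.33-fold to 862-fold. It reached the read minimum only through its control reads. It was the single measured member with a lower ratio than H2afz. Of 14 measured choroid plexus markers, 12 were at least 1.5-fold lower and 1 higher in the knockout. The shares of all measured genes were 5.43% lower and 3.52% higher. These markers had a median log2 ratio of -3.31, with Calml4 at 0 reads in the knockout. They summed to 155.2 CPM in the knockout and 975.8 CPM in the control, and most of the knockout sum was Tmem72, which was level at 134.5 CPM in the knockout and 144.2 CPM in the control. Most of the control sum was Ttr, at 1.345 CPM in the knockout and 702.4 CPM in the control. The part of choroid plexus content in the Wdr63 value was not tested. Gm43254, a non-coding model beside Ppa2, had 29 knockout and 15 control reads, 0.87 (-0.05 to 1.90), and was, with Col25a1 and 1110002E22Rik, past the limit on the higher side. The values nearest the limit were 0.71 for 1110002E22Rik and 0.55 for Cxxc4 on the higher side, and -0.62 for Tacr3 and -0.44 for Trmt10a on the lower.

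**Figure D5:**
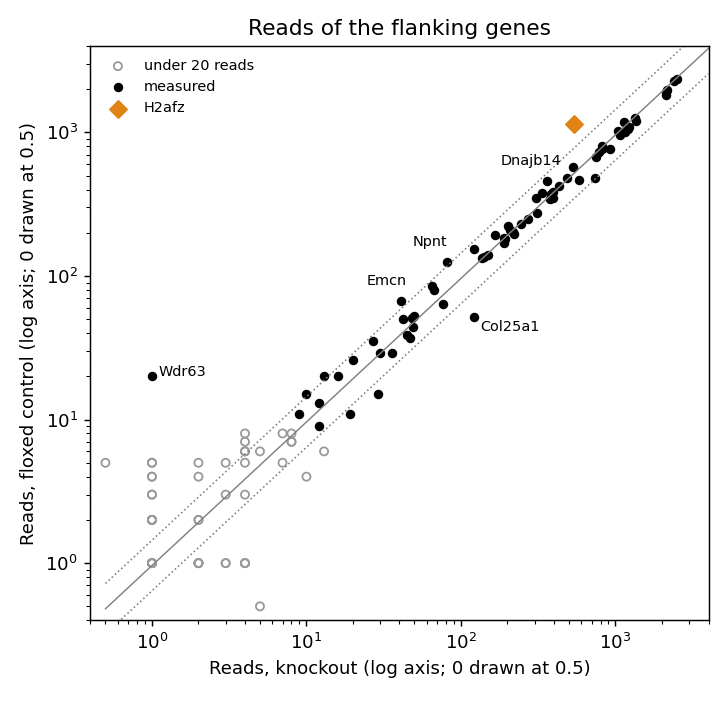
Reads in the knockout (horizontal) against reads in the control (vertical) for the 118 flanking genes on log axes, with 0 drawn at 0.5; filled points are measured, open points had under 20 reads in sum, and the diamond is H2afz. The solid line is an equal TMM-scaled level and the dotted lines are 1.5-fold; Wdr63 lies furthest off among the measured genes, and genes with many reads follow the line.

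The 47 members below the read minimum could not be compared. Of these 30 are not typed as protein-coding in GENCODE M21, 27 members had at most 5 reads in all, and the highest count in either library was 13 reads. They include Bdh2, a short-chain dehydrogenase gene, with 0 reads in the knockout and 5 in the control, Dkk2, a secreted Wnt modulator gene, with 8 knockout and 7 control reads, and Enpep, an aminopeptidase gene of pericytes, with 7 knockout and 8 control reads. Of 3 listed guanylate-binding protein genes, induced by interferon, Gbp7 was measured with 9 knockout and 11 control reads, -0.33 (-1.80 to 1.06). No difference was detectable for these genes at this depth. Among measured members, 37 had a ratio above 0 and 34 below, and 49 of 71 lay within 0.25 of level on the log2 scale.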

How the data were processed

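RNA was extracted with Trizol and made into TruSeq libraries from 2 ug of total RNA, per the labels' protocols. Tools in the submitters' processing notes are HTSeq 0.6.0, TopHat2 2.0.12 and Bowtie2 2.2.3, without their roles, and the stated build is mm9. Gene positions are those of the deposited table; 117 of the 118 members described have the same span in GENCODE M21 on GRCm38, so they are given as GRCm38. Values of 1 member are not reported here. The raw counts per gene, with 1 column per genotype, are used as deposited. The authors also deposited CPM per library, a fold ratio and its log2 value, both control over knockout, and p-value columns; none of these is printed, and only the authors' marks of significance are quoted.

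Counts were scaled by TMM in edgeR 4.0.16 (R 4.3.3), with a prior of 0.5 read in log2 ratios. Exon lengths for RPKM are unions of GENCODE M21 exons. The edgeR quasi-likelihood test needs replicates and was not run; DESeq2 1.42.0 gave alternative size factors only. Named genes are the measured members within 1 Mb, the 10 highest and 10 lowest ratios, the 5 with most reads, and members of role and family lists; Bdh2, Dkk2, Enpep, Gm43403 and the unmeasured Adh genes were named after their values were seen. The members and lists were chosen with earlier results of these data known. The calculation was tested on simulated data. For the simulated knockout against control, 4.04% of 14198 unchanged genes came out at least 1.5-fold apart from counting error alone. Distances are between nearest edges. Python 3.11.15, pandas 2.3.3, scipy 1.17.1 and matplotlib 3.10.9 were used.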

Additional observations from a re-analysis of the deposited data

How the results depend on the processing

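No paired analysis was possible because each genotype has 1 library. The counts of members apart, 3 higher and 5 lower in the knockout, did not change with scaling by library total or by DESeq2 size factors, nor when genes that cross the window's edge were allowed, of which there were none. With no read minimum they were 15 and 23, and with a minimum of 100 reads 1 and 2. With a 2-fold limit they were 1 and 1, with the added demand that the interval exclude a ratio of 1 they were 1 and 3, and in a window of 5 Mb on each side 2 and 3. A prior of 5 reads gave 2 higher and 3 lower members, and leaving out members that overlap another listed gene gave 1 higher and 5 lower. The higher members left out for overlap were Col25a1, which overlaps Gm43210, and 1110002E22Rik, which overlaps Gm5105. The medians, of all members and by distance, lay between -0.06 and 0.27 under every alternative run. The largest move was in the class from 1 to 2.5 Mb. Its median went from 0.15 to 0.27 without members that overlap another listed gene. Scaling by library total moved every ratio by -0.035 and DESeq2 size factors by 0.023, so medians this close to 0 take either sign. The ratios of all 64 named genes, H2afz included, stayed inside their intervals with either scaling and with a prior of 5 reads. Depth limits the rest: with 20 to 99 reads, 27.8% of members and 31.1% of all genes were past 1.5-fold.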
